A study of Mus musculus and Acomys cahirinus with 25 samples.

Results

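The genes described here are 8 transcription factors known for driving epithelial-mesenchymal transition (EMT): Twist1, Twist2, Snai1, Snai2, Zeb1, Zeb2, Prrx1 and Prrx2. They were taken by gene symbol from the 24500 genes counted in each of 25 RNA-seq libraries of mouse wounds and unwounded skin. All 8 were listed in every library, in some with 0 reads, and Twist1 served as the reference for the others. Laboratory mice (4 weeks old) carried full-thickness wounds on the back that were sampled at post-wound day 14 (PWD14). The study names C57BL/6J as its main strain and wild-type Twist1+/+ mice as the controls of its transgenic work. Spiny mice (Acomys cahirinus, 2 months old) were sampled at PWD0, 14, 21 and 28. The study gives PWD0 as the time before hair neogenesis, and its libraries are taken here as unwounded skin. The 13 laboratory mouse libraries comprised 2 of wild-type epidermis wound center, 2 of wild-type epidermis wound margin, 5 of wild-type dermis wound center, 2 of wild-type dermis wound margin and 2 of dermis wound center from the K14-Cre-Twist1 mutant. The center was a punch biopsy of the middle of the wound, the margin was the wound tissue left around it, and the layers were parted by hand. In the mutant, Cre under the keratin 14 promoter, which is active in basal keratinocytes, recombines a floxed Twist1. Only dermis libraries of the mutant are at hand. Wild-type center dermis libraries 3, 4 and 5 were taken as its controls, and may be of another mouse line than libraries 1 and 2. The 12 spiny mouse libraries, all wild type, were 6 of epidermis (1 from PWD0, 2 from PWD14, 2 from PWD21 and 1 from PWD28) and 6 of dermis (2, 1, 2 and 1), separated with trypsin and not divided into center and margin. The days are those of the labels, and the study's own list of its libraries gives slightly different days for the wounded spiny mice.

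EMT is the change by which epithelial cells loosen their junctions, lose their polarity and gain the motility and matrix production of mesenchymal cells. The zinc finger proteins of the Snail family (Snai1 and Snai2) and the Zeb family repress junction genes such as E-cadherin through short E-box sequences. The Twist proteins bind DNA as dimers of basic helix-loop-helix proteins, and Prrx1 and Prrx2 are homeobox proteins of limb, face and skin mesenchyme. All of these genes are also part of the normal expression of fibroblasts, and Snai2 is in addition made by basal keratinocytes, where it is known to restrain differentiation and to take part in the migration of wound-edge epidermis.

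Laboratory mouse libraries held between 19413261 and 86532134 reads on genes and spiny mouse libraries between 5669760 and 34751956. Spiny mouse reads were counted on the mouse genome, and 24.4% to 52.9% of them fell on genes, against 57.7% to 69.8% in the laboratory mouse. Levels are given as CPM, reads of a gene scaled to a fixed total of reads on genes, and 3 counts, taken as the smallest detectable amount, were worth 0.0347 to 0.155 CPM in laboratory mouse and 0.0863 to 0.529 CPM in spiny mouse libraries. Replicate libraries differed far beyond counting noise, with a chi-square per degree of freedom of 30.1 to 394, so that no library was a copy of another. The labels do not name the animals, and p-values measure the spread between these libraries. The layer labels held against 14 keratinocyte markers, which summed to 154590.0 to 218466 CPM in laboratory mouse epidermis and to 9.82 to 632 CPM in wild-type center dermis, where 1 to 10 of the 14 were at 0. They reached 2496 and 5075 CPM in margin dermis, and 1055 and 38168 CPM in the K14-Cre-Twist1 dermis libraries 1 and 2. The 15 fibroblast markers summed to 2855 and 2304 CPM in center epidermis, to 798 and 337 CPM in margin epidermis, to between 33727 and 74355 CPM in laboratory mouse dermis and to between 194 and 415 CPM in spiny mouse epidermis, with at most 1 of the 15 at 0 in any library. Laboratory mouse epidermis was sequenced as paired-end and dermis as single-end reads, and this difference cannot be told apart from that between the layers.

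On the GRCm38 build of the mouse genome, RefSeq places Twist1 at chr12:33957671-33959831, Twist2 at chr1:91801461-91848034, Snai1 at chr2:167538195-167542814, Snai2 at chr16:14705852-14709395, Zeb2 at chr2:44983512-45117442, Prrx1 at chr1:163245119-163315145 and Prrx2 at chr2:30845064-30881251, each span from the first to the last base of the gene. The hexamer CACCTG, with its reverse complement CAGGTG, is the E-box that Snail and Zeb proteins are known to bind, and both strands were searched in the 250 bases before each annotated start (RefSeq, GRCm38.p6). It was present in 17.2% of 32851 windows, and 19.4% of 27025 genes held it in a window. Of the 8 transcription factors, 6 had a window and 1 of these, Snai1, held the hexamer. Of 20 junction and adhesion genes of epithelia, 15 had a window and 8 of these held it. A match is a description of the letters and not a bound site. The windows of Snai1, of Twist1 as a member without a match, and of the junction genes with the most matches (Crb3, a polarity gene) and with a change in several comparisons (Epcam, an adhesion gene), chosen after their values were seen, are printed 5′ to 3′ on the plus strand with the hexamer in capitals. The match begins 126 bases before the start in Snai1, 118, 63 and 7 bases before it in Crb3, and 187 and 19 bases before it in Epcam. The regions are chr2:167537945-167538194 for Snai1, chr12:33957421-33957670 for Twist1, chr17:57061951-57062200 for Crb3 and chr17:87635729-87635978 for Epcam.
Snai1: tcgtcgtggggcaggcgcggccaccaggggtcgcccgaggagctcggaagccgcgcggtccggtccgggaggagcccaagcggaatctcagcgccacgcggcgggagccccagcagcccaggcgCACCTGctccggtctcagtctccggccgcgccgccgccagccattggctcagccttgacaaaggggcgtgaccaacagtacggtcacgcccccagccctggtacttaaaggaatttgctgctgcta
Twist1: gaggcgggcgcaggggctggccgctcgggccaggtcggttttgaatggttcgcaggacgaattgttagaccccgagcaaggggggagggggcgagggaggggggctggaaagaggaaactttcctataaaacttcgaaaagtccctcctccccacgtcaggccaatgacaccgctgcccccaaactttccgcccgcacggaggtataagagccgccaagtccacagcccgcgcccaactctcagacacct
Crb3: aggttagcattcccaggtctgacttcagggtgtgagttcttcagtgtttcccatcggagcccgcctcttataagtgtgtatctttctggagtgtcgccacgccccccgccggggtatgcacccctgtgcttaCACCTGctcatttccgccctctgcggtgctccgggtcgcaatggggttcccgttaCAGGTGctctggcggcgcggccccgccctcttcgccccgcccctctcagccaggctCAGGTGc
Epcam: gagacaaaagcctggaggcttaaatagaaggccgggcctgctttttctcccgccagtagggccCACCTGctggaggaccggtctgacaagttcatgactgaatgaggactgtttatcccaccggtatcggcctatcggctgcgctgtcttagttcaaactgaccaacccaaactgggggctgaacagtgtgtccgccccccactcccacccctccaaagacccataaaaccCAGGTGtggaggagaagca

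The balance of the family was first compared between layers. To set genes of different length beside each other, CPM was divided by the exon length in kilobases. Each gene was then given as its share of the sum over the 8 genes in its library. Spiny mouse shares and ratios rest on mouse genes and mouse exon lengths. A gene's level and its sequence divergence from the mouse cannot be told apart in them. Snai2 took the largest share in 3 of 4 laboratory mouse epidermis libraries and in 6 of 6 spiny mouse epidermis libraries. In laboratory mouse center epidermis its share was 32.9% and 33.2%, beside 34.3% and 31.6% for Twist1, so that both genes were level there. In margin epidermis Snai2 took 77.4% and 88.7% and Twist1 12.6% and 4.68%. Spiny mouse epidermis held 68.4% Snai2 at PWD0, 58.8% and 64.2% (PWD14), 66.5% and 66.9% (PWD21) and 77.2% (PWD28).

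**Figure D1:**
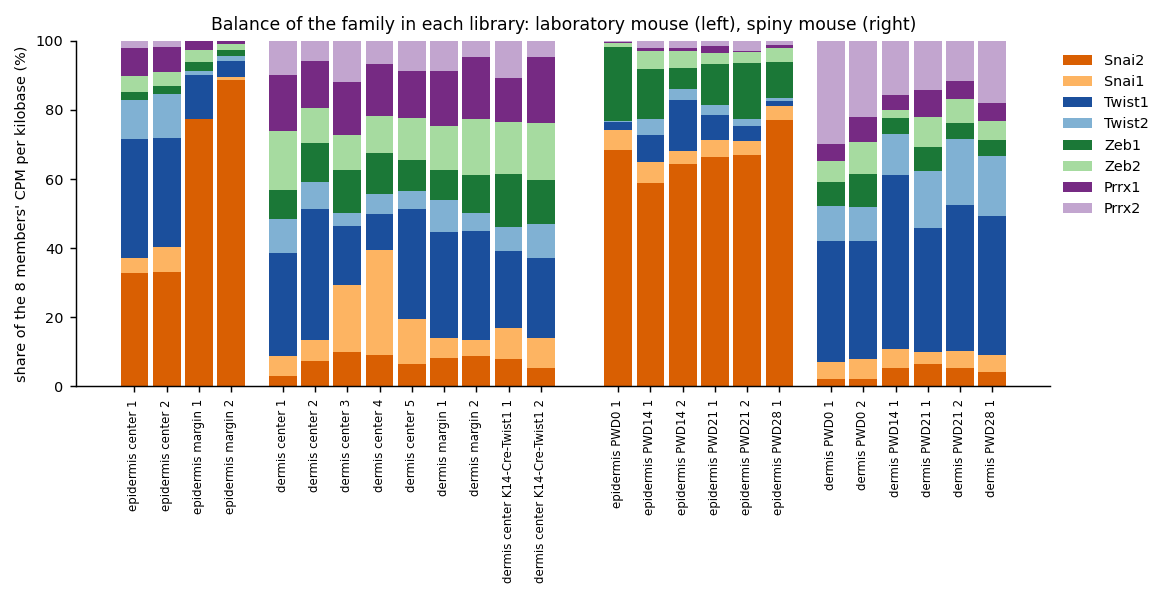
Share of each of the 8 transcription factors in their summed CPM per kilobase (percent, vertical axis) in each of the 25 libraries (horizontal axis, grouped by layer, region, genotype and day). Snai2 fills most of the bar in margin epidermis (77.4% and 88.7%) and in every spiny mouse epidermis library (58.8% to 77.2%), and between 2.12% and 9.99% of it in dermis.

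Dermis had another composition. The Snai2 share there was 3.04% to 9.99% in the 9 laboratory mouse libraries and 2.12% to 6.49% in the 6 spiny mouse libraries. Twist1 took the largest share in 7 of 9 laboratory mouse and in 6 of 6 spiny mouse dermis libraries. The exceptions were wild-type center libraries 3 and 4, in which Snai1 led with 19.5% and 30.4%, against 5.85%, 6.14% and 13.1% in wild-type center libraries 1, 2 and 5. The summed level of the 8 genes was 43.0 to 66.3 CPM in laboratory mouse epidermis and 648 to 1200.4 CPM in dermis, and 22.8 to 39.6 CPM and 799.7 to 2249 CPM in the spiny mouse. In bulk tissue, fewer cells of a type and less RNA per cell cannot be told apart.

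Ordered by median CPM per kilobase, center epidermis of the laboratory mouse ran from Snai2 (6.67) and Twist1 (6.66) over Twist2 (2.43), Prrx1 (1.57), Snai1 (1.15), Zeb2 (0.881) and Zeb1 (0.454) to Prrx2 (0.381). The leading pair overlapped, Snai2 at 6.43 to 6.92 and Twist1 at 6.11 to 7.22 CPM per kilobase. Wild-type center dermis (n = 5) ran from Twist1 (64.3) over Prrx1 (32.1), Snai1 (26.4), Zeb1 (25.5), Zeb2 (24.7), Snai2 (18.7) and Prrx2 (17.5) to Twist2 (12.3). Snai2, at the head of the epidermis order, was thus the sixth of 8 in dermis.

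Snai2 (Slug), the Snail family member of basal keratinocytes and of migrating cells, had lower levels in center than in margin epidermis of the laboratory mouse. Its level was 14.0 and 13 CPM in the 2 center libraries and 37.7 and 33.2 CPM in the 2 margin libraries. Both center values lay below both margin values. The log2 fold change of center over margin was -1.50 (SE 0.25), and with an FDR, the Benjamini-Hochberg adjusted p of edgeR's quasi-likelihood test over all tested genes, of 0.0618 it missed the threshold of 0.05. The likelihood ratio test of edgeR and DESeq2 called it (FDR 0.00023 and 0.000154), in fits that called 10.8% and 10.7% of all genes. It was not called without center library 1 (-1.53, FDR 0.526) or 2 (-1.46, FDR 0.585), nor with the older version of the quasi-likelihood test (FDR 0.0947). Without margin library 1 or 2 it was at -1.33 and -1.63 and passed, but with a single margin library left the test called 36.4% and 50.9% of all genes and 7 and 5 of the 8 members, against 1.24% and 1 with all 4 libraries, and in both fits without a center library it called 0 members.

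In dermis of the laboratory mouse, Snai2 stood at 14.0, 37.9, 41.8, 40.3 and 26.3 CPM in wild-type center libraries 1 to 5. Margin dermis held 41.8 and 40.1 CPM, and K14-Cre-Twist1 center dermis 32.3 and 13 CPM. These dermis groups overlapped. Center libraries 1 and 2 were both below the margin in CPM, whereas with TMM scaling center library 2 (31.0) was level with margin library 2 (30.9). Snai2 was the only one of the 8 genes whose epidermis and dermis libraries overlapped in level in either species. Its layer difference, epidermis over dermis, was a log2 fold change of -0.52 (SE 0.40, FDR 0.299) in wound center and 0.63 (SE 0.34, FDR 0.157) in wound margin by edgeR, neither past the threshold. The layer values depend on scaling: without TMM factors the median of all genes moved by -0.72 in center and by -0.82 in margin, and Snai2 was then at -1.25 (FDR 0.0312) and -0.21.

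**Figure D2:**
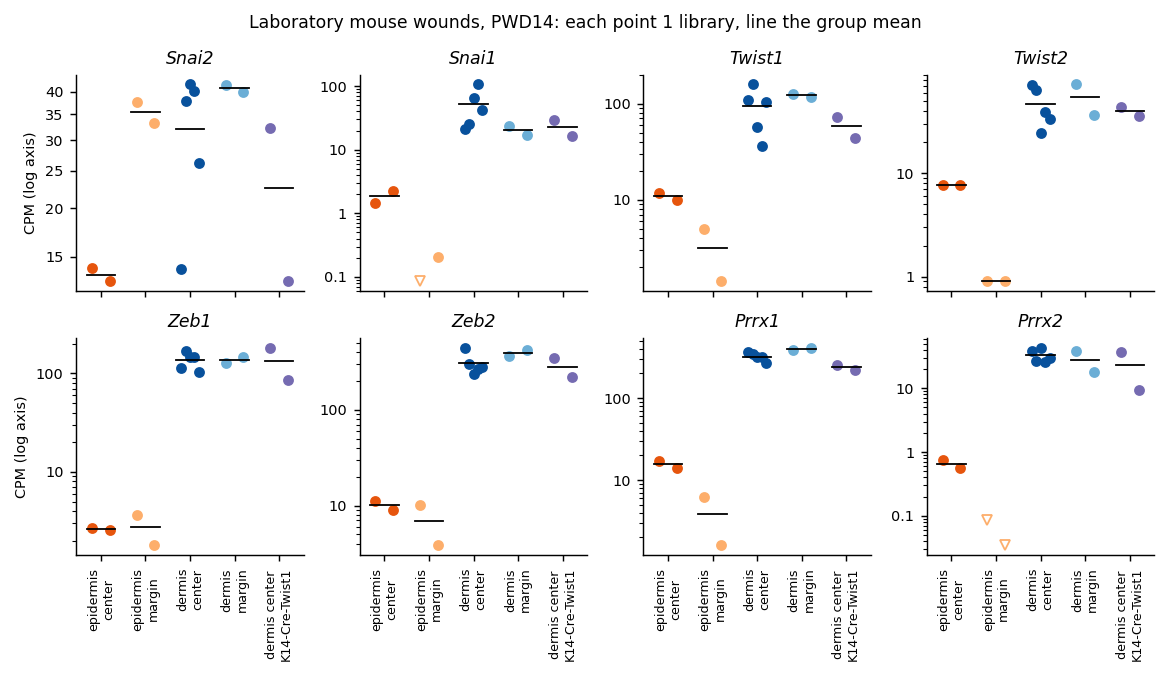
Level of each gene in CPM (vertical axis, log scale) in the 13 laboratory mouse libraries at PWD14 (horizontal axis, grouped by layer, region and genotype), with 1 point per library and a line at the group mean. Open triangles mark libraries with 0 counts, drawn at the level of 3 counts, and no mean is drawn for those groups. Snai2 is at 13 and 14.0 CPM in center and 33.2 and 37.7 CPM in margin epidermis, overlapping dermis, and the other 7 genes are lower in every epidermis library than in every dermis library.

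Spiny mouse epidermis held 17.9 CPM of Snai2 at PWD0, 10.9 and 10.8 CPM (PWD14), 11.4 and 10.8 CPM (PWD21) and 21.7 CPM (PWD28). The single libraries of the first and last day were the highest of the 6 in CPM, but with TMM scaling PWD0 (15.8) fell below PWD14 library 1 (16.1). PWD14 over PWD21 gave a log2 fold change of 0.51 (SE 0.24, edgeR FDR 0.108) with TMM factors and -0.040 without them. Dermis held 11.3 and 9.85 CPM (PWD0), 59.5 CPM (PWD14), 77.3 and 76.4 CPM (PWD21) and 49.3 CPM (PWD28), all wound libraries being above both of PWD0. The PWD0 dermis libraries were the shallowest of the series, with 5669760 and 6804714 reads on genes (27.0% and 32.8% of reads). Those of PWD21 had 21927269 and 34751956 (44.9% and 52.9%), and the part of this difference was not tested. From PWD0 to PWD21 Snai2 rose by a log2 fold change of 2.74 (SE 0.31, FDR 0.000814), the largest of the 8 genes, and it was called under each of 12 alternatives, with 2.54 to 3.0. Over all days Snai2 was lower in epidermis than in dermis, by a log2 fold change of -1.44 (SE 0.42, FDR 0.0129), and this call was lost without the PWD14 dermis library (-1.23, FDR 0.0692).

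Snai1, the Snail family member of early EMT and of activated fibroblasts, was scarce in epidermis. Laboratory mouse epidermis had 1.47 and 2.24 CPM in center and 0 and 0.208 CPM in margin libraries. The 2 groups did not overlap, and the log2 fold change of 3.56 (SE 0.93, FDR 0.109) missed the threshold with edgeR, as it did with DESeq2 (FDR 0.0583) and the likelihood ratio test (FDR 0.0737). It was called in the fits that kept a single margin library and not in those that kept a single center library (FDR 0.451 and 0.719). Dermis had 21.5, 25.7, 65.3, 106 and 42.8 CPM in wild-type center libraries 1 to 5, 23.2 and 17.3 CPM in margin and 28.8 and 16.3 CPM in K14-Cre-Twist1 libraries. Snai1 thus spread over a wide range within wild-type center dermis, 52.3 ± 34.8 CPM (SD, n = 5), with center libraries 3, 4 and 5 above all 6 of the other dermis libraries. Spiny mouse epidermis ranged from 0.510 to 1.23 CPM, with the highest value at PWD0 in CPM and in PWD14 library 1 with TMM scaling, and dermis went from 20.6 and 19.7 CPM (PWD0) to 47.0 CPM (PWD14), 32.5 and 54.8 CPM (PWD21) and 44.6 CPM (PWD28). The wound values of spiny mouse dermis were above both PWD0 values, but the log2 fold change of PWD21 over PWD0, 1.01 (SE 0.36, FDR 0.0675), did not pass.

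Within the Snail family the balance differed between the layers. Snai2 per Snai1, both per kilobase, was 9.36 to 18.8 in the 6 spiny mouse epidermis libraries and 0.401 to 1.91 in the 6 dermis libraries. The ratio was 4.64 to 128 in the 3 laboratory mouse epidermis libraries with Snai1 above 0 and 0.304 to 1.86 in the 9 dermis libraries. The ranges of the layers did not overlap in either species, and the highest value, 128, rests on a Snai1 level of 0.208 CPM.

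Twist1, the bHLH factor of mesenchyme that the study knocks out in keratinocytes, had 11.8 and 9.95 CPM in center and 4.93 and 1.41 CPM in margin epidermis of the laboratory mouse. Twist2 (Dermo1), its close homolog in dermal fibroblasts, had 7.66 and 7.74 CPM in center and 0.907 and 0.901 CPM in margin. In both genes the center libraries were above the margin libraries, and Twist2 replicates lay much closer together than those of Twist1. Twist2 rose by a log2 fold change of 3.01 (SE 0.45, FDR 0.0496 by edgeR), while Twist1 was at 1.86 (SE 0.62, FDR 0.162). The Twist2 call is a narrow one: it was lost without center library 1 (3.04, FDR 0.202) or 2 (2.98, FDR 0.236), without TMM factors (FDR 0.0521) and with the older version of the quasi-likelihood test (FDR 0.0815), while the fold change hardly moved. The Twist1 value rests on the margin pair, being 2.91 without margin library 1 and 0.99 without margin library 2, in the fits that called 36.4% and 50.9% of all genes. The sum of the 15 fibroblast markers was also higher in center (2855 and 2304 CPM) than in margin epidermis (798 and 337 CPM). Of the 15 markers, 13 had a positive log2 fold change and 3 were called higher, and the lowest was at -1.87. Their part in the values of both genes was not tested.

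In dermis of the laboratory mouse, Twist1 had 109, 159, 57.7, 36.3 and 105 CPM in wild-type center libraries 1 to 5, 126 and 117 CPM in margin and 73.4 and 44.0 CPM in K14-Cre-Twist1 libraries. The mutant libraries lay within the wild-type range. Since Cre is driven in keratinocytes, dermal Twist1 does not check the deletion. Twist2 had 71.2, 64.2, 24.4, 38.9 and 33.6 CPM in the same wild-type center libraries, 72.5 and 36.9 CPM in margin and 43.9 and 36.2 CPM in mutant dermis, with all groups overlapping. Center libraries 1 and 2 held more Twist2 than libraries 3, 4 and 5, and less Snai1. These sets may differ in mouse line, and its part was not tested.

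Spiny mouse epidermis held little of both Twist genes. Twist1 was at 0.472 CPM (PWD0), 1.16 and 2.04 CPM (PWD14), 0.975 and 0.571 CPM (PWD21) and 0.308 CPM (PWD28). Twist2 was at 0.0944, then 1.32 and 0.830, 0.828 and 0.514, and 0.308 CPM at the same days, and the PWD0 value stands for 1 read. The PWD14 libraries were the highest for both genes. Twist1 was higher at PWD14 than at PWD21 by a log2 fold change of 1.52 (SE 0.55, edgeR FDR 0.0422), a call that was lost in 7 of 12 alternatives, with an FDR of 0.151 without TMM factors and of 0.249, 0.0987 and 0.228 without PWD14 library 2, PWD21 library 1 or PWD21 library 2. Twist2 did not pass (log2 fold change 1.10, SE 0.61, FDR 0.163).

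Dermis of the spiny mouse was rich in both. Twist1 had 150.4 and 119.8 CPM (PWD0), 442 CPM (PWD14), 346 and 475 CPM (PWD21) and 374 CPM (PWD28), and Twist2 had 86.1 and 66.7, then 203, 308 and 423, and 309.7 CPM. Every wound library was above both PWD0 libraries in both genes. At PWD21 Twist2 was higher than at PWD0 by a log2 fold change of 2.14 (SE 0.34, FDR 0.00361) and Twist1 by 1.48 (SE 0.34, FDR 0.0146), the latter call being lost without PWD21 library 2 (1.21, FDR 0.121). Twist2 per Twist1, per kilobase, stayed between 0.094 and 0.581 in all libraries with more than 3 reads of Twist1. The medians were 0.294 in laboratory mouse and 0.359 in spiny mouse dermis. Twist1 was thus the more abundant of the pair per kilobase in each of these libraries. In reads, Twist2 exceeded Twist1 in wild-type center dermis library 4 (772 against 721) and in spiny mouse epidermis PWD14 library 1 (17 against 15).

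**Figure D3:**
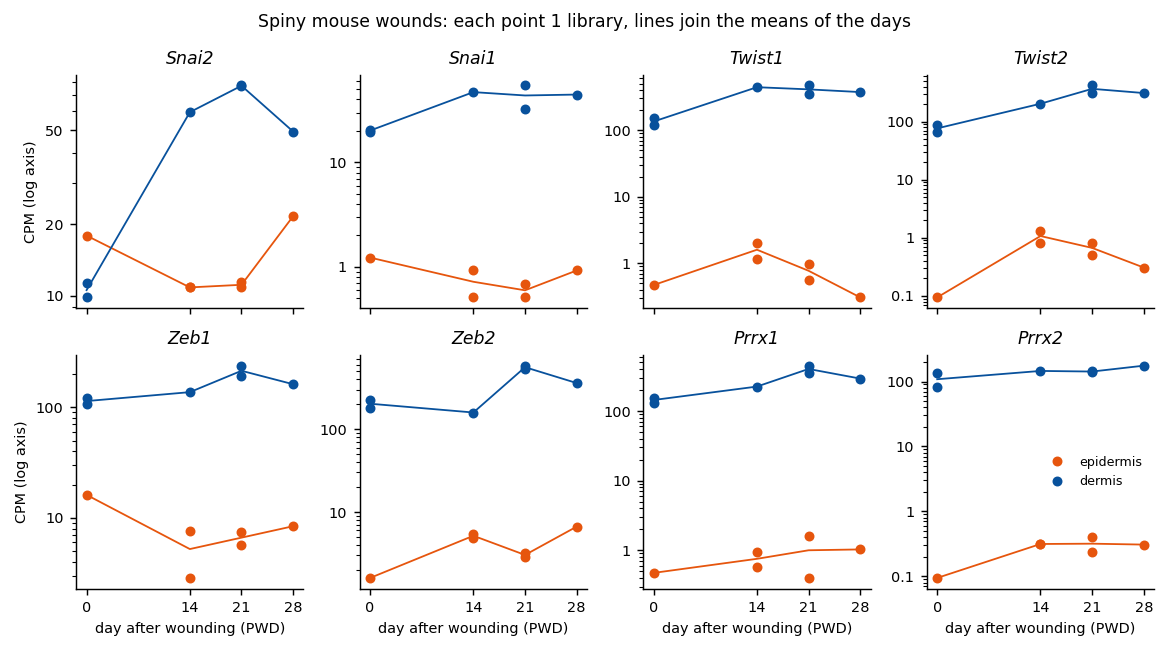
Level of each gene in CPM (vertical axis, log scale) against the day after wounding (PWD0, 14, 21 and 28, horizontal axis) in spiny mouse epidermis (orange) and dermis (blue), with 1 point per library and lines through the means of the days. Dermal Snai2 goes from 9.85 and 11.3 CPM (PWD0) to 76.4 and 77.3 CPM (PWD21), while epidermal Snai2 stays at 10.8 to 21.7 CPM.

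Zeb1 and Zeb2, the zinc finger and homeodomain repressors of epithelial genes, showed less of a center-margin difference. Zeb1 in laboratory mouse epidermis had 2.68 and 2.59 CPM in center and 3.66 and 1.80 CPM in margin, and Zeb2 had 11.2 and 9.01 CPM in center and 10.1 and 3.86 CPM in margin. The groups overlapped in both genes, with log2 fold changes of -0.032 (SE 0.55, FDR 0.976) and 0.51 (SE 0.53, FDR 0.590) by edgeR. Without margin library 1, Zeb2 was at 1.36. Dermis held 104 to 168 CPM of Zeb1 (136 ± 26.6, SD, n = 5) and 239.6 to 442 CPM of Zeb2 (307 ± 78.9) in wild-type center, 128 and 145 CPM of Zeb1 and 369 and 419.7 CPM of Zeb2 in margin, and 181 and 86.2 CPM of Zeb1 and 346 and 221 CPM of Zeb2 in mutant libraries, again overlapping.

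Zeb1 stood out in spiny mouse epidermis, where it took the second largest share in most libraries, 5.92% to 21.4% of the family per kilobase. It had 16.1 CPM (PWD0), 7.60 and 2.87 CPM (PWD14), 5.73 and 7.54 CPM (PWD21) and 8.42 CPM (PWD28), highest in the PWD0 library. Zeb2 had 1.61, then 5.50 and 4.85, 3.22 and 2.85, and 6.67 CPM, lowest in the PWD0 library, and was higher at PWD14 than at PWD21 by a log2 fold change of 1.29 (SE 0.34, edgeR FDR 0.00923). That call was lost without TMM factors (0.74, FDR 0.0786) and without PWD21 library 2 (1.20, FDR 0.0693). Spiny mouse libraries were not strand-specific, so that reads from antisense transcripts at a locus count with the gene.

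In spiny mouse dermis Zeb1 had 106 and 121 CPM (PWD0), 137 CPM (PWD14), 237 and 189 CPM (PWD21) and 161 CPM (PWD28). Zeb2 had 179 and 225, then 159, 582 and 533.9, and 359 CPM. Zeb2 was at its lowest in the single PWD14 library, below both of PWD0, unlike the other 7 genes. With TMM scaling that library (173) lay close to PWD0 library 1 (178). The study describes a peak of dermal Zeb2 at PWD14, which these counts do not show. The difference between PWD21 and PWD0 was 1.36 for Zeb2 (log2, SE 0.29, FDR 0.0112) and 0.80 for Zeb1 (SE 0.27, FDR 0.0582), and the Zeb2 call was lost without PWD21 library 1 (FDR 0.0800) or 2 (FDR 0.0780).

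Prrx1, a homeobox gene of fibroblasts and their precursors, had the smallest SD relative to its mean of the 8 genes in wild-type center dermis of the laboratory mouse. Wild-type center libraries 1 to 5 had 361, 344, 314, 316 and 270.4 CPM, 321 ± 34.5 CPM (SD, n = 5), margin libraries had 391 and 406 CPM, and K14-Cre-Twist1 libraries had 254 and 222 CPM. The mutant libraries were below, and the margin libraries above, every wild-type center library in CPM. With TMM scaling the mutant libraries were still the lowest, and margin library 2 (313) fell just below center library 1 (314). Neither difference passed: center over margin was a log2 fold change of -0.086 (SE 0.18, FDR 0.884) and mutant over wild type -0.33 (SE 0.22, FDR 0.544) by edgeR. In epidermis Prrx1 had 16.9 and 14.1 CPM in center and 6.15 and 1.61 CPM in margin, not overlapping, with a log2 fold change of 2.06 (SE 0.64, FDR 0.146), which was 3.24 without margin library 1 and 1.19 without margin library 2.

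Prrx2, the homeobox gene known from fetal skin and its wounds, was close to the floor in epidermis. Laboratory mouse center epidermis had 0.751 and 0.561 CPM and neither margin library had a read. Against 3 counts in the shallower margin library, center was at least 7.71-fold higher, a bound from counts and not from a test. EdgeR's quasi-likelihood test did not call the difference (FDR 0.155). DESeq2 (FDR 0.0348) and the likelihood ratio test (FDR 0.00193) did, in fits that called 10.7% and 10.8% of all genes. Dermis had 38.7, 26.5, 42.6, 25.5 and 30.2 CPM in wild-type center, 38.3 and 18 CPM in margin and 37.0 and 9.31 CPM in mutant libraries. The low mutant value belonged to library 2, the one with 38168 CPM of keratinocyte markers, and the groups overlapped. Spiny mouse epidermis had 1 to 8 reads of Prrx2 per library, 0.0944 to 0.400 CPM, which is at most 8 reads and too few for the days to be compared.

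The balance of the pair differed between the species. Prrx2 per Prrx1, per kilobase, was 0.240 to 0.832 in the 9 laboratory mouse dermis libraries (median 0.561) and 1.84 to 5.83 in the 6 spiny mouse dermis libraries (median 3.22), without overlap. Reads of the spiny mouse were matched to mouse genes, so that sequence divergence, library type and species cannot be told apart in this ratio, and it was not tested. Within spiny mouse dermis, Prrx1 had 132 and 156 CPM (PWD0), 225 CPM (PWD14), 449 and 356 CPM (PWD21) and 293 CPM (PWD28), with every wound library above PWD0. Prrx2 had 135 and 81.9, then 146, 145 and 140.1, and 175 CPM. Prrx1 was higher at PWD21 than at PWD0 by a log2 fold change of 1.38 (SE 0.28, FDR 0.0102), lost without PWD21 library 1 (FDR 0.0839) or 2 (FDR 0.0531), and Prrx2 was at 0.25 (SE 0.35, FDR 0.622). The share of Prrx2 in the family was 29.7% and 22.1% (PWD0) and 11.7% to 17.9% in the wound libraries.

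The members were then counted over the comparisons, with the share of all genes beside each count. In 13 laboratory mouse libraries, 7 of the 8 genes had every epidermis library below every dermis library, where 20.6% of all genes did, and the same 7 did so in 12 spiny mouse libraries, where 10.8% of all genes did. Snai2 was the exception in both. By edgeR, 7 of 8 were lower in epidermis than in dermis of the wound center (24.9% of genes tested), with log2 fold changes from -1.86 (Twist2, FDR 0.00577) and -2.37 (Twist1, FDR 0.00439) to -4.97 (Zeb1, FDR 4.31e-06). In the wound margin 7 of 8 were lower (27.0% of genes tested), from -4.52 (Twist1) to -6.32 (Snai1), with Prrx2 at least 331-fold lower. All 8 of 8 were lower in spiny mouse epidermis (28.0% of genes tested), from -1.44 (Snai2) and -4.13 (Zeb1) to -8.60 (Twist1 and Twist2) and -8.83 (Prrx2), where leaving out TMM factors moved the median of all genes by -0.13. The center comparison shares its 5 dermis and 2 epidermis libraries with the region and genotype comparisons.

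**Figure D4:**
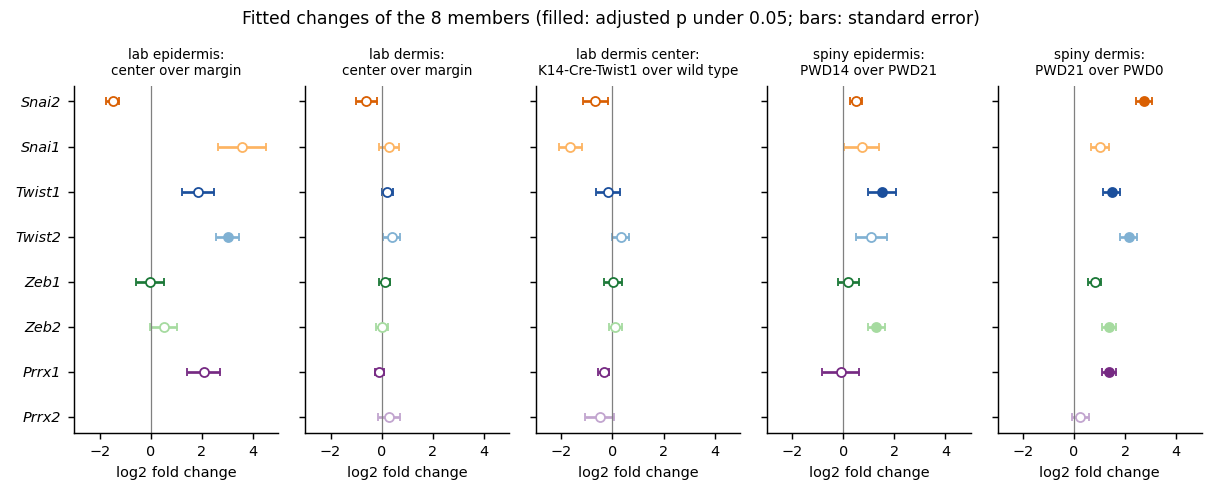
Log2 fold change (horizontal axis) of each of the 8 genes (vertical axis) in 5 comparisons, with bars of 1 standard error. Filled points passed an FDR of 0.05 in edgeR's quasi-likelihood test and open points did not. Prrx2 is left out in both epidermis panels, where the margin libraries held no read and where it was too low to be tested. Snai2 lies left of 0 in laboratory mouse epidermis (-1.50) and far right of it in spiny mouse dermis (2.74).

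Between wound center and margin of epidermis, 1 of 8 genes was called higher (Twist2), against 0.882% of all genes tested, and 6 of 8 had an unadjusted p under 0.05, as 23.5% of all genes did. Snai2 alone among the 6 had lower levels in center. In dermis 0 of 8 were called between center and margin by edgeR (0.850% of genes tested), with 0 at an unadjusted p under 0.05 and 0 called by DESeq2 or by either of 2 other edgeR tests. The difference between the layers in the center-margin change was tested as an interaction, which called 1 of 8 higher in epidermis (3.34% of genes tested), Twist2 at 2.75 (log2, SE 0.60, FDR 0.0308), a call lost without any 1 of 7 of the 8 libraries, all but margin dermis library 2 (FDR 0.0544 to 0.155). Prrx1 was at 2.26 (SE 0.61, FDR 0.0778), Twist1 at 1.75 (SE 0.62, FDR 0.180) and Snai2 at -0.76 (SE 0.55, FDR 0.570), where the median of all genes was 0.31. In spiny mouse epidermis 2 of the 7 genes tested (Twist1 and Zeb2) were higher at PWD14 than at PWD21 (23.4% of genes tested), and none was without TMM factors, which moved the median of all genes by -0.55. In spiny mouse dermis 5 of 8 were higher at PWD21 than at PWD0 (12.1% of genes tested), namely Snai2, Twist2, Twist1, Prrx1 and Zeb2 by size of change.

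In K14-Cre-Twist1 against wild-type center dermis, for which wild-type center libraries 3, 4 and 5 were used, edgeR called 0 of 8 genes (0.0565% of genes tested). Snai1 alone had an unadjusted p under 0.05, with a log2 fold change of -1.65 (SE 0.47, FDR 0.277). DESeq2 called it (FDR 0.0120), the likelihood ratio test called 0 of 8, and with all 5 wild-type libraries the value was -1.19 (FDR 0.462). Snai2 was at -0.67 (SE 0.48, FDR 0.576), Prrx2 at -0.50 (SE 0.58, FDR 0.733), Twist1 at -0.19 (SE 0.47, FDR 0.885), Twist2 at 0.32 (SE 0.35, FDR 0.716), Zeb1 at 0.013 and Zeb2 at 0.11. These values depend on which libraries are kept. Leaving out wild-type center library 5 took Twist1 to 0.32 and Zeb1 to -0.13. Without mutant library 1, Snai1 (-2.17, FDR 0.0198), Snai2 (-1.52, FDR 0.0415) and Prrx2 (-1.88, FDR 0.0301) passed, in a fit that called 22.5% of all genes, and 0 members passed without mutant library 2. The remaining mutant library is the one with 38168 CPM of keratinocyte markers and 33727 CPM of fibroblast markers, the lowest fibroblast sum of the 9 dermis libraries. The part of these cells in the values was not tested.

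The members were next set against Twist1 within each library, as log2 ratios of counts with 0.5 counts added, so that scaling drops out. The layers were compared by a two-sided exact permutation test over wild-type libraries within region or day, 4 against 7 in the laboratory mouse (126 arrangements, smallest possible p 0.00794) and 6 against 6 in the spiny mouse (108 arrangements, 0.00926), adjusted over 14 ratios. This measure was chosen after seeing the data. In spiny mouse epidermis Twist1 had only 3 to 33 reads per library, so that all ratios to it there rest on few counts. Snai2 relative to Twist1 was higher in epidermis by 3.55 in the laboratory mouse (p = 0.0238, adjusted 0.0417, exact) and by 7.39 in the spiny mouse (p = 0.00926, adjusted 0.0216, exact). The former lost its p under 0.05 without either center epidermis library (0.0556 by the same exact test in each). Twist2 kept pace with Twist1, with differences of 0.075 and -0.056.

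The other members were compared in the same way. Relative to Twist1, Zeb1 was lower in epidermis of the laboratory mouse by -1.47 (adjusted p = 0.0494, exact permutation) and higher in that of the spiny mouse by 4.57 (adjusted p = 0.0216, exact permutation). Zeb2 had -1.21 and 2.52, both with an adjusted p of 0.0216 in the exact permutation test. Prrx1 was lower by -1.45 in the laboratory mouse (adjusted p = 0.0317, exact permutation) and at 0.48 in the spiny mouse (adjusted p = 0.648), and Prrx2 was at -4.33 (adjusted p = 0.0216) and -0.18 (adjusted p = 0.821) in the same exact tests. Snai1 was at -2.32 (adjusted p = 0.145) and 3.39 (adjusted p = 0.0216, exact permutation). Leaving out center epidermis library 1 or 2 took Zeb1 (exact p = 0.0833) and Prrx1 (exact p = 0.0556) of the laboratory mouse past 0.05, margin epidermis library 1 did so for Zeb1 (0.0794 in the same permutation test), and the PWD0 epidermis library for Snai1 and Zeb1 of the spiny mouse (exact p = 0.0556). No test between the species was run, and the species differ in how the layers were separated and in how well their reads match the mouse genome.

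**Figure D5:**
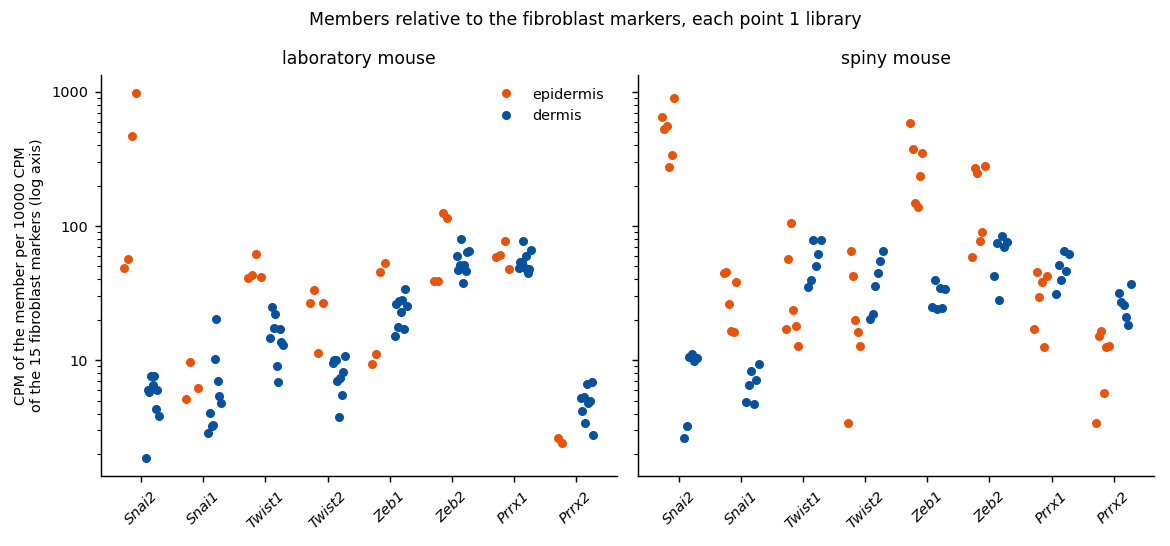
CPM of each gene per 10000 CPM of the 15 summed fibroblast markers of the same library (vertical axis, log scale) in epidermis and dermis of both species, with 1 point per library. Libraries with 0 counts are left out (Prrx2 in both and Snai1 in 1 of the laboratory mouse margin epidermis libraries). Prrx1 of laboratory mouse epidermis lies within the dermis range, and Snai2 lies above it in every epidermis library.

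The fibroblast markers found in epidermis libraries offer a scale for the mesenchymal members, and each gene was given per 10000 CPM of their sum, again a measure chosen after seeing the data and given without a test. Prrx1 had 59.1 and 61.3 in center and 77.1 and 47.6 in margin epidermis of the laboratory mouse, within the 44.4 to 77.5 of its dermis. On this scale the layers and regions overlapped for Prrx1. The marker sum is far lower in epidermis than in dermis (337 to 2855 against 33727 to 74355 CPM in the laboratory mouse, 194 to 415 against 30297 to 76844 CPM in the spiny mouse). A gene that other cells make is thus high in epidermis on this scale in any case. The share of all genes above the dermis range was not computed. Snai2 had 49.0 and 56.4 in center and 472 and 984 in margin epidermis, against 1.88 to 7.65 in dermis, so that every epidermis library was above every dermis library. Twist1 had 41.2 to 61.8 in epidermis against 6.89 to 25 in dermis, and Twist2 11.4 to 33.6 against 3.8 to 10.7, also without overlap. Prrx2 was the reverse, 2.63 and 2.43 in center epidermis and 0 in margin against 2.76 to 6.91 in dermis. In the spiny mouse, Snai2 (275 to 904 against 2.65 to 11.2) was above the dermis range in each epidermis library. So were Zeb1 (138 to 587 against 24.1 to 39.8) and Snai1 (16.2 to 45.6 against 4.71 to 9.39). Prrx2 (3.43 to 16.5 against 18.2 to 36.9) was below it. Prrx1 (12.6 to 45.6 against 31.1 to 65.0) and Twist1 (12.8 to 105 against 35.4 to 78.7) overlapped. Twist2 (3.43 to 64.7 against 20.2 to 65.2) and Zeb2 (58.4 to 278 against 28.0 to 84.3) overlapped as well. By edgeR, 14 of the 15 fibroblast markers were lower and 1 was higher in spiny mouse epidermis than in dermis. Over the days of spiny mouse dermis, Snai2 went from 2.65 and 3.25 per 10000 CPM of fibroblast markers at PWD0 to between 9.94 and 11.2 in the later libraries.

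The genes around the family were followed in lists of mesenchymal effectors, epithelial junctions, factors that keep cells epithelial, inducers of EMT and partners of Twist in its dimers. In center against margin epidermis, 7 of 20 mesenchymal effectors rose, where 0.882% of all genes tested rose. Their median log2 fold change was 1.77, against -0.015 over all genes. Spp1 (osteopontin) rose by 3.90, Acta2 (smooth muscle actin) by 2.81 and Itga5 (the fibronectin receptor subunit) by 2.33. Of the junction genes 1 of 17 tested rose, the claudin Cldn4 with a log2 fold change of 1.97, and 0 fell by edgeR, with 2 lower at an unadjusted p under 0.05 and 1 lower by DESeq2. Of the 18 inducers tested, the receptor gene Pdgfrb rose alone (3.45, from 1.45 to 17.7 CPM in group means), and 3 of 15 fibroblast markers rose beside it (median 2.38). Of the 20 effectors DESeq2 called 12, in a fit that called 10.7% of all genes in either direction. The older quasi-likelihood test called 0 effectors and 0 genes in all. Markers of vessels were also higher in center libraries. All 8 endothelial markers had a positive log2 fold change (median 3.61, summed level 39.4 and 28.8 CPM in center, 7.09 and 1.62 CPM in margin), as did all 8 markers of pericytes and smooth muscle (median 2.95, 188 and 172 CPM against 97.0 and 115 CPM). The quasi-likelihood test called 0 of either list, and DESeq2 called 5 and 1. At an unadjusted p under 0.05, 7 endothelial and 4 mural markers were higher, where 23.5% of all genes passed in either direction. Acta2 and Pdgfrb are also made by these mural cells, and the part of vessel cells in the values was not tested.

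In dermis, where no member was called between center and margin, 5 of 15 junction genes and 2 of 11 epithelial factors tested were lower in the center, against 0.735% of all genes. Epcam (-4.66), the desmosome genes Pkp1 (-3.78) and Dsp (-3.31) and the E-cadherin gene Cdh1 (-2.60) were among them, and 8 of 14 keratinocyte markers were lower as well (median -3.36). Keratinocyte markers were higher in margin dermis libraries (2496 and 5075 CPM) than in center libraries 1 and 2 (632 and 445 CPM), and their part was not tested.

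Of the comparisons within a layer, that of spiny mouse dermis called the most genes of these lists. From PWD0 to PWD21, 12 of 20 mesenchymal effectors rose and 2 fell, where 12.1% of all genes rose and 14.1% fell. Their median was 1.68, against 0.027 over all genes. The matrix genes Tnc (tenascin C) and Fn1 (fibronectin) were at 5.74 and 4.61, and the cadherin Cdh11 at 4.38. In the same comparison 12 of 20 junction genes and 8 of 11 epithelial factors fell, where 14.1% of all genes fell. No gene of either list rose by edgeR or DESeq2, and 0 were higher at an unadjusted p under 0.05. Cldn7 fell by 6.48, Ocln by 3.65, Crb3 by 3.61 and Epcam by 2.71 on the log2 scale. Among the partners and competitors of Twist, 4 of 8 fell and 1 rose, and the inhibitors Id1 (-1.92), Id2 (-1.57) and Id4 (-1.31), which bind E proteins without binding DNA, were 3 of those that fell. Of the 20 inducers 6 rose, among them Pdgfrb (2.73) and Fgfr1 (1.49), and 2 fell, Met (-1.85) and Il6 (-3.59). Keratinocyte markers fell in 11 of 14 cases (11791 and 7943 CPM (PWD0), 689 and 1207 CPM at PWD21), all 8 adipocyte markers fell, and 8 of 15 fibroblast markers rose, and their part in the members' changes was not tested.

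In spiny mouse epidermis at PWD14 against PWD21, 8 of 18 mesenchymal effectors tested were higher and 1 lower, and 1 of 18 junction genes was higher and 8 were lower. Of all genes tested, 23.4% were higher and 23.2% lower, and without TMM factors 1335 were higher and 5722 lower. Sox4, a factor linked to EMT, was higher by 2.94 and the metalloproteinase Mmp3 by 2.0, while the tight junction genes Ocln (-2.32) and Marveld2 (-3.61) were lower. The epithelial factors were divided, 4 higher and 4 lower of 12. The ligands of the TGF-beta family went apart, Tgfb1 higher by 1.65 and Tgfb3 lower at -4.71. Markers of other cells moved as well, with 4 of 13 fibroblast markers higher and 1 lower, 5 of 11 myeloid markers higher and 2 lower, 3 of 6 T cell markers higher, and 2 of 4 adipocyte markers higher and 2 lower. Adipocyte markers summed to 6332 and 5190.04 CPM (PWD14) and to 1386 and 1081 CPM (PWD21). In each PWD14 epidermis library, 3 of the 8 adipocyte markers had no read. In dermis the same markers summed to 136 CPM (PWD14) and to 153 and 282 CPM (PWD21), less than in epidermis of the same day. The epidermis sum is thus not taken as a measure of adipocytes. Which cells made these markers, and the part of other cells in the values, was not tested. Between the layers, the E protein Tcf4 was lower in epidermis (-2.73 in laboratory mouse center, -3.20 in margin and -3.37 in the spiny mouse), and Id4 was higher (4.66, 3.8 and 1.95).

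Finally, the genes most like each member were named by the root mean square difference of log2 levels centered on each gene's mean, over 13 laboratory mouse libraries (13969 genes) and over 12 spiny mouse libraries (13766 genes). Nearest to Snai2 were Ppat (0.297), Msl2 (0.307) and Amotl1 (0.366) in the laboratory mouse and Tpbg (0.278), Maf (0.286) and Sorcs2 (0.372) in the spiny mouse. Those of Prrx1 were Fermt2 (0.314), Sgce (0.334) and Col1a2 (0.362), and Lox (0.438), Aebp1 (0.438) and Serping1 (0.442). Among those of Prrx1 were a collagen chain and the collagen cross-linking enzyme Lox. Prrx2 was nearest to Icam2 (0.352), Nrp1 (0.356) and Samd14 (0.361), and to Sgce (0.453), Pdgfrl (0.482) and Nnmt (0.485). Twist1 was nearest to Tmem100 (0.453), Ifi204 (0.462) and Loxl4 (0.466) in the laboratory mouse, and to Twist2 (0.406), Olfml3 (0.421) and Pth1r (0.531) in the spiny mouse. Counted from Twist1, Twist2 ranked 32 and 1 among all genes in the 2 species, whereas Snai2 ranked 8510 and 2457. The measure follows the layers, which dominate these libraries, and no test was made of it.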

How the data were processed

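The authors deposited raw read counts per gene for 25 libraries of epidermis and dermis from wounds and, at PWD0, from unwounded spiny mouse skin. Per the submitters' processing notes, reads were aligned to mm10 with STAR 2.4.1d (the methods of the study name another version of STAR) and counted with HTSeq 0.6.0. The annotation was RefSeq, and poly(A) RNA was sequenced. Depth was 5669760 to 86532134 reads on genes per library; intervals and floors cover counting error only. The 5 summary lines of each table were left out (30.2% to 42.3% of reads in laboratory mouse and 47.1% to 75.6% in spiny mouse libraries).

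From these counts, CPM was computed over all genes and CPM per kilobase with the summed exon length of GENCODE vM21. Tests used edgeR 4.0.16 (R 4.3.3, limma 3.58.1) and its quasi-likelihood test, after filterByExpr and TMM scaling and with 0.125 as the prior count; p-values of each comparison were adjusted together (Benjamini-Hochberg). An SE is the absolute fitted change divided by the root of its F statistic. Groups came from the labels. Wild-type center dermis libraries 1 and 2 were set against margin and 3, 4 and 5 against the mutant, a division taken from the library numbers the study prints. The comparisons were checked on simulated counts. The members and the gene lists were chosen with earlier results of these data known. Named besides the 8 members are up to 4 genes per list and comparison with an FDR under 0.05, at least 1 CPM on average and the largest change, not all of which are reported here, and the 3 genes nearest to Twist1, Snai2, Prrx1 and Prrx2. Epcam in spiny mouse dermis was named after its values were seen. Alternatives were DESeq2 1.42.0, 2 other edgeR tests, RLE and no scaling factors, other filters, other sets of libraries and each library left out in turn. Ratios to Twist1 and levels per fibroblast marker were added after seeing the data. Summaries and plots were made in Python 3.11.15 (matplotlib 3.10.9, scipy 1.17.1, pandas 2.3.3).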

Additional observations from a re-analysis of the deposited data

Results flagged for a closer look

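One result differed between groups by a test of the difference itself. The change of Twist2 between wound center and wound margin was larger in epidermis than in dermis of the laboratory mouse, by 2.75 on the log2 scale (SE 0.60, interaction term of edgeR's quasi-likelihood test, FDR 0.0308). Twist2 had 7.66 and 7.74 CPM in center and 0.907 and 0.901 CPM in margin epidermis, and 71.2 and 64.2 CPM in center and 72.5 and 36.9 CPM in margin dermis. Both center epidermis libraries were above both margin ones, and the dermis groups overlapped. The FDR rose above 0.05 on leaving out any 1 of 7 of the 8 libraries (0.0544 to 0.155), all but margin dermis library 2. The summed fibroblast markers in epidermis were also higher in the center, and their part was not tested. In the groups of 4 or more libraries, no level of a member stood apart from its group by Dixon's criterion.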

How the results depend on the processing

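No paired analysis was possible because the labels give the libraries no replicate numbers that groups share. Of 958 alternative values of the members' log2 fold changes, 858 kept direction and side of the threshold, 38 newly passed it, 26 no longer passed and 36 changed sign; of 175 alternative ratios to Twist1, the numbers were 155, 1, 9 and 10. The cause of these changes was not tested. Genes called in epidermis between center and margin (176) numbered 1511 with DESeq2, 1533 with the likelihood ratio test, 0 with the older quasi-likelihood test (2893 at an unadjusted p under 0.05) and 70 to 7409 with 1 library left out, and members called (1) numbered 0 without TMM factors, 3, 3, 0 and 0 to 7. In dermis (125 genes) they were 738, 886, 54, 323 with all 5 wild-type center libraries, and 19 to 240. For the mutant (8 genes) they were 787, 214, 2, 190 with all 5, 0 with at least 10 counts in every library, and 1 to 3357, and members (0) 1 with DESeq2 and 0 to 3. Leaving out 1 library gave 5050 to 7880 genes between the layers in center (7766), 4497 to 7625 in margin (7163), 3465 to 6642 in spiny mouse epidermis (6000) and 1299 to 5118 in its dermis (3793, members 5, 2 to 6). In spiny mouse epidermis members (2) were 0 without TMM factors, 1 without a filter, 1 with DESeq2, 1 with the older test and 0 to 2. A minimum of 10 counts in every library, which leaves fewer genes to test, gave 4807 genes between spiny mouse layers (8255) and 3 of 8 members. The interaction (540 genes, 1 member) gave 204 with that minimum, 1127 and 3 with DESeq2, 1485 and 3 with the likelihood ratio test, 2 members with the older test, 2 with all 5 center libraries, and 167 to 1342 and 0 to 2 with 1 library left out.

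Without TMM factors the split of higher and lower genes moved from 4020 and 3746 to 2292 and 5824 between the layers in center, from 3130 and 4033 to 1595 and 6191 in margin, and from 3010 and 2990 to 1335 and 5722 in spiny mouse epidermis. That setting reversed Zeb1 in epidermis (0.070), Zeb2 in dermis (-0.087), Snai2 between margin layers (-0.21), Snai2 (-0.040) and Zeb1 (-0.35) in spiny mouse epidermis and Zeb1 in the interaction (0.016). All 5 wild-type libraries reversed Twist1 (-0.22), Twist2 (-0.10) and Zeb2 (-0.19) in dermis and Twist2 (-0.17) and Zeb2 (-0.081) in the mutant. Prrx1 in spiny mouse epidermis was 0.14 with DESeq2, 0.085 with the likelihood ratio test and 0.063 with the older test, and the ratio of Twist2 to Twist1 in the spiny mouse 0.021 with 1 count added. With 1 library left out, the ranges that crossed 0 were -0.62 to 0.51 for Zeb1 and -0.14 to 1.36 for Zeb2 in epidermis; -0.025 to 0.43 for Twist1, -0.044 to 1.01 for Twist2, -0.14 to 0.35 for Zeb1, -0.34 to 0.30 for Zeb2 and -0.17 to 1.0 for Prrx2 in dermis; -0.66 to 0.32 for Twist1, -0.67 to 0.48 for Zeb1, -0.30 to 0.43 for Zeb2 and -1.88 to 0.19 for Prrx2 in the mutant; -0.68 to 0.80 for Zeb1 and -0.59 to 1.41 for Prrx1 in spiny mouse epidermis; -0.15 to 0.84 for Prrx2 in its dermis; and -0.59 to 0.50 for Zeb1 in the interaction. For ratios to Twist1 they were -0.37 to 0.52 for Twist2 in the laboratory mouse, and -0.27 to 0.28 for Twist2, -0.011 to 0.67 for Prrx1 and -0.60 to 0.27 for Prrx2 in the spiny mouse. With 1 library left in a group, that library is assumed to vary like the others.

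With 1 or 2 libraries in most groups, and Prrx2, Snai1 and both Twist genes at a few reads in spiny mouse epidermis, differences there were often not detectable at this depth. Read type, dissection and layer cannot be told apart.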
